A study of Mus musculus with 2 samples.

Results

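Caudal epiblast cells of the mouse embryo were divided by whether they carried a transcript of Sox2, of T, or of both, and the 3 resulting classes of cells were compared. A cell was taken as caudal epiblast when its barcode held at least 8000 unique molecular identifiers (UMIs, counts of single captured transcripts), 0.3% to 10% of them mitochondrial, at least 3 UMIs of Nkx1-2, Hes3 and Epha5 together, and 0 UMIs of Tbx6, Msgn1, Sox1, Pax6 and Irx1. Of 48694 barcodes in the series, 2968 met these limits. Of these, 1628 cells had at least 1 UMI of Sox2 or T and form the classes: 356 Sox2-only cells (Sox2 but no T), 295 double-positive cells (both) and 977 T-only cells (T but no Sox2). The other 1340 were double-negative. The UMIs of these 10 genes chose the cells, so the classes were chosen by measured values, and the values of these genes are a description that carries no test.

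The cells came from caudal tissue of wild-type C57BL/6J embryos at embryonic day 8.5. Tissue pieces were pooled, dissociated for 15 min with the enzyme mix TrypLE and profiled with a 10x Genomics 5′ single-cell kit. The labels give 1 group with 2 libraries, called replicate 1 and replicate 2 here, and name 3 germ layers (endoderm, mesoderm, ectoderm) as the cell type. Whether each library had its own embryo pool is not said. Library was a block in the fits, which takes up overall differences between the libraries. The p-values thus measure only how the differences between classes vary over these libraries. The technical part of that variation was not tested. Xist, the RNA of the inactive X chromosome, stood at 131 to 165 CPM in the 3 classes of replicate 1 and at 0 to 0.49 CPM in those of replicate 2, so the libraries differed in more than counting error. CPM is a gene's UMIs divided by all UMIs of a class in 1 library and multiplied by 1000000.

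The caudal epiblast lines the tail end of the embryo and adds new cells to the trunk as it extends. Sox2 encodes a transcription factor of neural progenitors and T (Brachyury) a T-box transcription factor of the primitive streak and early mesoderm. Cells that hold both are the usual definition of the neuromesodermal progenitor, which gives rise to spinal cord and to paraxial mesoderm, and Wnt and FGF signals together with the removal of retinoic acid are known to keep it in place.

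Replicate 1 held 30449 barcodes with a median of 5842 UMIs and replicate 2 held 18245 with a median of 6351. The selected cells numbered 1928 with a median of 19516 UMIs and 1040 with a median of 15094.5 UMIs. The libraries shared 761 barcode sequences, among them 53 and 55 selected cells. Scrublet, a doublet caller, marked 6.69% and 1.95% of the filtered barcodes against expected rates of 24.4% and 14.6%, so doublets were not removed from the main values. Some genes differed between the libraries in every class, such as Pou5f1, at 52.2 to 85.2 CPM in replicate 1 and 0.71 to 0.99 CPM in replicate 2. A level summed over a class in this way cannot tell apart more cells with a transcript from more transcripts per cell.

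T-only cells were the most numerous of the 3 classes in both libraries. They made up 36.7% of the selected cells in replicate 1 (exact Clopper-Pearson 95% interval 34.5% to 38.9%) and 26.0% (23.3% to 28.7%) in replicate 2. Sox2-only cells made up 10.7% (9.34% to 12.1%) and 14.4% (12.3% to 16.7%). Double-positive cells made up 9.54% (8.27% to 10.9%) and 10.7% (8.86% to 12.7%). With whole counts, the intervals of the T-only and Sox2-only shares did not overlap between libraries, and those of the double-positive share did. Intervals cover counting error only. The order of the classes depends on the rule. Before cells with Sox1, Pax6 or Irx1 UMIs were left out, Sox2-only cells numbered 494 and 361 and T-only cells 806 and 351. In replicate 2, Sox2-only cells were thus the more numerous at that step.

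**Figure D1:**
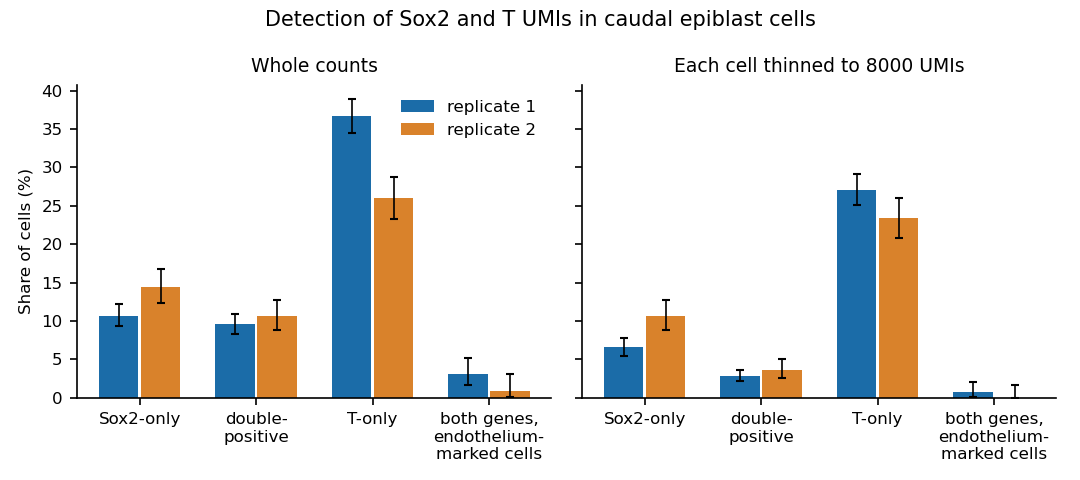
Share of selected caudal epiblast cells in each class (y axis, percent), per library, from whole counts and after each cell was thinned to 8000 UMIs. Bars on the points are exact Clopper-Pearson 95% intervals. The double-positive share is 9.54% and 10.7% with whole counts and 2.80% and 3.65% after thinning.

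The classes rest on very few molecules, so depth sets their size. When each cell was thinned at random to 8000 UMIs, double-positive cells numbered 54 (2.80%, interval 2.11% to 3.64%) and 38 (3.65%, 2.60% to 4.98%). Only 29.3% and 34.2% of the original double-positive cells kept both genes. Sox2-only cells then made up 6.54% (5.47% to 7.73%) and 10.7% (8.86% to 12.7%), and T-only cells 27.1% (25.1% to 29.1%) and 23.4% (20.8% to 26.1%). At this equal depth the intervals of the T-only share overlapped between libraries, and those of the Sox2-only share did not.

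Endothelial cells should lack both genes and give the background, counted in 428 and 229 barcodes with at least 3 UMIs of Cdh5, Tek and Tie1 together, at the same limits and with median depths of 25032 and 16065 UMIs. T was found in 19.4% and 10.0% of them and Sox2 in 6.31% and 2.62%. Both genes were found in 3.04% (1.63% to 5.14%) and 0.873% (0.106% to 3.12%), below the double-positive share of caudal epiblast. This share does not give the background of the double-positive class. A cell that holds Sox2 needs only 1 background UMI of T to enter that class, and T alone was more frequent in background cells. How many double-positive cells arose in this way was not tested. After thinning, both were found in 3 (0.701%) of the background cells of replicate 1 and in 0 of 229 in replicate 2, for which the exact interval ends at 1.598%. T averaged 16.6 and 9.94 CPM in the background cells and Sox2 2.99 and 1.53 CPM.

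Double-positive cells were about as frequent as the separate frequencies of the 2 genes give. With 46.2% of selected cells holding T and 20.2% holding Sox2 in replicate 1, independence gives 180 double-positive cells and 184 were seen. In replicate 2, independence gives 95.6 and 111 were seen. The odds ratios of holding both were 1.05 and 1.40, and 1.01 and 0.913 after thinning. These counts follow from the rule and carry no test.

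Within the double-positive class, T averaged 2.48 and 1.89 UMIs per cell and Sox2 1.30 and 1.44. A single UMI of each gene was all that 67 (36.4%) and 40 (36.0%) of these cells held. Among T-only cells, 281 (39.7%) and 113 (41.9%) held 1 T UMI, and among Sox2-only cells 137 (66.5%) and 105 (70.0%) held 1 Sox2 UMI. The highest counts in a cell were 18 and 16 for T and 5 and 7 for Sox2. More T than Sox2 UMIs were present in 83 and 45 double-positive cells, called T-biased below, and more Sox2 than T in 24 and 22, called Sox2-biased.

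T lies on chromosome 17 at 8434423 to 8442496 (plus strand), Sox2 on chromosome 3 at 34650405 to 34652461 (plus strand) and Nkx1-2 on chromosome 7 at 132594878 to 132599637 (minus strand), in the GRCm38 (mm10) build with GENCODE vM21 models. T summed to 113 and 104 CPM in double-positive cells and to 134 and 155 CPM in T-only cells. Sox2 summed to 59.5 and 78.9 CPM in double-positive cells and to 63.5 and 84.0 CPM in Sox2-only cells. In each library both genes were lower in double-positive cells than in the class with that gene alone, T more so than Sox2.

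Nkx1-2, the homeobox gene that marks caudal epiblast, stood at 273 and 189 CPM in Sox2-only, 254 and 185 CPM in double-positive and 159 and 140 CPM in T-only cells, against 18.91 and 10.96 CPM in background cells. Hes3, a progenitor repressor of the Hes family, followed the same order with 175 and 145, 137 and 129, and 77.3 and 73.1 CPM. Epha5, an ephrin receptor, was lower in Sox2-only cells (227 and 238 CPM) than in double-positive (435 and 305 CPM) and T-only cells (388 and 359 CPM). Cdx2, a caudal homeobox gene outside the rule, reached 405 to 547 CPM in the 3 classes and 60.2 and 45.9 CPM in background cells. Cdx2 thus stood well above background in all 3 classes of both libraries. For Nkx1-2 the rule itself favours this, since background cells did not have to hold UMIs of the progenitor genes.

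Cells with exactly 3 UMIs of the progenitor genes, just inside the limit, numbered 241 and 188, with T in 24.5% and 19.1% and Sox2 in 5.81% and 9.57%. Cells with 2, just outside it, numbered 385 and 294, with T in 18.7% and 10.9% and Sox2 in 4.68% and 5.78%.

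Endoderm markers were present in the classes and stood highest in T-only cells. At least 1 UMI of Sox17, Foxa2, Foxa1, Noto or Shh, which are genes of endoderm and notochord, was found in 28.9% and 23.7% of T-only cells. The shares were 11.96% and 18.02% in double-positive cells and 11.7% and 10.0% in Sox2-only cells. At least 3 such UMIs were found in 22.8% and 12.2% of T-only, 8.15% and 12.6% of double-positive and 3.88% and 5.33% of Sox2-only cells. The 12 endoderm markers summed to 1320 and 480 CPM in T-only, 525 and 340 CPM in double-positive and 797 and 164 CPM in Sox2-only cells. The 11 notochord and node markers summed to 138 and 81.6, 47.3 and 98.2, and 45.0 and 55.7 CPM in the same order. Noto, which defines the notochord, was at 0 in Sox2-only cells of both libraries and in double-positive cells of replicate 1. Counts of genes are therefore also given without all cells that held a UMI of these 5 genes, called marked cells below, an alternative added after the data were seen. Beyond that, the part of these cells in the results was not tested.

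In T-only cells, Cyp26a1, Fgf8, Rspo3 and Wnt3a stood higher than in Sox2-only cells, and 14 of 22 neural tube genes stood lower. Sums of counts per class and library, fitted with edgeR's quasi-likelihood test, gave the differences: 455 genes rose and 263 fell in T-only cells at an adjusted p under 0.05. That is 6.34% of the 11330 genes tested, 4.02% higher and 2.32% lower. DESeq2 called 81 higher and 41 lower. Without the marked cells, 176 genes were higher and 118 lower, and 247 of the 718 genes were called again. The sign differed between the libraries for 5 of the 718 genes.

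Sox17 rose most by the naming rule and is described with the endoderm markers. Cyp26a1, which encodes an enzyme that breaks down retinoic acid, came next. It stood at 47.5 and 48.6 CPM in Sox2-only cells, 143 and 214 CPM in double-positive cells and 212 and 346 CPM in T-only cells. Each library thus showed the same order, with the double-positive class in between, while background cells held 89.9 and 34.9 CPM. Against Sox2-only cells, its log2 fold change in T-only cells was 2.41 ± 0.11 (SE, n = 2 libraries, edgeR adjusted p = 5.87e-08). Efna1, an ephrin ligand, stood at 10.4 and 9.56, 35.4 and 27.1, and 52.1 and 45.2 CPM along the same 3 classes, and rose by 2.23 ± 0.14 on the log2 scale (edgeR adjusted p = 1.54e-06).

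Ptprz1, a receptor phosphatase of neural progenitors, ran the other way. It stood at 34.3 and 27.5 CPM in Sox2-only, 16.1 and 6.91 CPM in double-positive and 4.24 and 3.33 CPM in T-only cells, a log2 fold change of -2.96 ± 0.20 between the end classes (edgeR adjusted p = 1.81e-06). Gadd45a, a gene of growth arrest and stress responses, stood at 37.1 and 25.5, 16.6 and 9.37, and 11.9 and 8.09 CPM, and fell by 1.64 ± 0.15 on the log2 scale (edgeR adjusted p = 2.29e-05). Sox2-only cells lay apart from both other classes for all 4 genes. Within each library, all 4 genes had the double-positive value between the other classes. Across the libraries, the double-positive and T-only values overlapped for Cyp26a1 and Gadd45a but not for Efna1 and Ptprz1.

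The promoters of these 4 genes, the leading pair in each direction with a sequence in the table used, are shown because the order of the classes is described on these genes. Sequences are from RefSeq on GRCm38.p6, start up to 250 bases before the gene, are cut where a GENCODE model begins, and read 5′ to 3′ along the gene. Cyp26a1 is given from chr19:37697558-37697797 (plus strand, 240 bases), Efna1 from chr3:89281143-89281201 (minus strand, 59 bases), Ptprz1 from chr6:22875252-22875501 (plus strand, 250 bases) and Gadd45a from chr6:67037458-67037657 (minus strand, 200 bases). Capitals would mark a motif, and there are none.
Cyp26a1: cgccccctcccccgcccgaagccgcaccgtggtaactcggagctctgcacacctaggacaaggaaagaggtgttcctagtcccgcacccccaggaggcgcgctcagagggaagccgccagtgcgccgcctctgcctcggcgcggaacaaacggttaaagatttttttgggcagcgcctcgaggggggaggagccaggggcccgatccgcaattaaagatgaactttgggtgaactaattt
Efna1: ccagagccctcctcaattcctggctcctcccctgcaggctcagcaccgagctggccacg
Ptprz1: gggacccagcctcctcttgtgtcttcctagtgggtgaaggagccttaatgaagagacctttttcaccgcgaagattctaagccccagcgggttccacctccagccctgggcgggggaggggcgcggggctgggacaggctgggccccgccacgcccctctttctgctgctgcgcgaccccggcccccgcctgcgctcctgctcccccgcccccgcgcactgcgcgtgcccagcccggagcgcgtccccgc
Gadd45a: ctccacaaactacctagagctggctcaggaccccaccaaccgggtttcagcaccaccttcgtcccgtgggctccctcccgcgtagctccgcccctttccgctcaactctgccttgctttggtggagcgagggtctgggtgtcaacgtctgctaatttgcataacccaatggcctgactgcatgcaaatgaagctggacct

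Motifs were searched on both strands as the letters TCACACCT for T-box factors, ATCAAAG for TCF/LEF, AACAATG for SOX and TTTATGG for CDX. None of these strings lies in the 4 windows, which says only that these letters are absent there. In the first 250 bases of all 27025 promoter entries, not cut at gene models, they lie in 1.14%, 3.23%, 3.36% and 2.45%. Among the 8904 entries of genes that were tested, the shares are 0.528%, 2.25%, 1.44% and 1.38%. The genes themselves lie at chromosome 19, 37697798 to 37701536 (Cyp26a1), chromosome 3, 89271733 to 89281142 (Efna1), chromosome 6, 22875502 to 23052916 (Ptprz1) and chromosome 6, 67035096 to 67037457 (Gadd45a).

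Of 21 caudal epiblast genes tested outside the rule, 9 rose and 4 fell in T-only cells, with a median log2 fold change of 0.17 against 0.00 over all genes. Those that rose included the ligands Fgf8, from 91.0 and 127 CPM to 392 and 384 CPM (log2 fold change 1.86 ± 0.11), Wnt3a, from 19.6 and 12.7 to 59.7 and 40.5 CPM (1.58 ± 0.16), and Fgf17 (1.11 ± 0.12). They also included Evx1, a homeobox gene of the streak (0.85 ± 0.09), and Cdx4, a caudal homeobox gene (0.39 ± 0.06). The edgeR adjusted p-values of these 5 genes were 1.37e-06, 7.94e-05, 0.000107, 0.00012 and 0.00157. Those that fell were Wnt8a, Gbx2, Cdx1 and Pou5f1, of which Cdx1 (-0.82 in replicate 1 alone, 0.32 in replicate 2 alone) and Pou5f1 (-0.51 and -0.11) rested on replicate 1. With the marked cells left out, 11 rose and 2 fell.

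A minority of early mesoderm genes passed, among cells that the rule had cleared of Tbx6 and Msgn1 UMIs. That step took T-only cells from 1503 to 806 in replicate 1 and from 705 to 351 in replicate 2. Its effect on the genes below was not tested. Of 13 presomitic mesoderm genes tested, 4 rose and none fell: Rspo3, Cited1, Hes7 and Dll3. Rspo3, a secreted enhancer of Wnt signals, rose from 47.1 and 54.5 CPM to 157 and 263 CPM (log2 fold change 1.94 ± 0.14, edgeR adjusted p = 4.53e-06). Hes7, the repressor that drives the segmentation clock, rose from 55.4 and 58.9 CPM to 122 and 151 CPM (1.20 ± 0.12, edgeR adjusted p = 6.2e-05). Of 14 genes of the streak and of mesoderm entry, 4 rose (Mixl1, Cited1, Sp5 and Evx1) and 2 fell (Lefty2 and Mest). Lefty2 rested on low levels in replicate 1, 8.52 CPM in Sox2-only and 2.82 CPM in T-only cells, and was at 0 in both classes of replicate 2. Mest, an imprinted gene of mesoderm, stood at 1239 and 977 CPM in Sox2-only and 1008 and 539 CPM in T-only cells. Mixl1, a homeobox gene of the streak, was called at low levels, 0.64 and 0.40 CPM (3 and 1 UMIs) in Sox2-only and 8.61 and 3.09 CPM in T-only cells. Snai1, a regulator of epithelial to mesenchymal transition, did not pass (log2 fold change 0.18, edgeR adjusted p = 0.729), nor did Dll1, a Notch ligand of the presomitic mesoderm (-0.74, edgeR adjusted p = 0.133).

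In the Wnt pathway, 7 of 25 ligands, receptors and effectors rose and 3 fell, with a median of 0.19. Besides Rspo3 and Wnt3a, the ligand Wnt5b rose by 1.25 ± 0.09 on the log2 scale. Among feedback targets and inhibitors, 7 of 13 rose and 2 fell, with a median of 0.71. Sp5 (1.02), Nkd1 (0.92), Axin2 (0.79) and Notum (0.71), which Wnt signals are known to induce, were among the genes that rose, and the secreted inhibitors Sfrp1 and Sfrp2 fell. Once the marked cells were left out, 5 rose and 2 fell in the first list, and 4 rose and 2 fell in the second.

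In the Notch list, 6 of 15 genes rose, led by Nrarp, a feedback inhibitor of Notch (log2 fold change 1.30), and 2 fell. In the BMP and TGF-beta list, 7 of 20 rose and none fell, and 4 of 19 rose without the marked cells. Bmp4, a BMP ligand, was among these in both fits (log2 fold change 1.06, and 0.91 without the marked cells, where it went from 20.2 to 46.2 CPM in replicate 1 but from 17.1 to 20.9 CPM in replicate 2), whereas Id1 and Id3, targets of BMP signals, went from 0.53 and 0.48 to 0.14 and 0.12. Without those cells the edgeR adjusted p-values of Id1 and Id3 were 0.467 and 0.437. In the FGF list, 2 of 9 ligands and receptors rose (Fgf8 and Fgf17) and 2 fell (Fgf15, at -1.65 and -3.35 in the libraries alone, and Fgfr2, at -0.86 and -1.52).

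A pair of genes outside these pathways were among those that rose most. Cdkn1a, the cell cycle inhibitor p21, rose from 24.9 and 23.5 CPM to 87.4 and 83.1 CPM (log2 fold change 1.78 ± 0.11, edgeR adjusted p = 1.54e-06). It was the only gene of a list of 14 p53 targets that rose, and 1 fell (Phlda3). Gadd45a, which also fell in T-only cells, is not in that list. Lmo2, a LIM-only cofactor known from blood and endothelium, rose from 16.6 and 21.1 CPM to 69.7 and 63.8 CPM (1.85 ± 0.15, edgeR adjusted p = 7.64e-06), against 167 and 213 CPM in background cells. Of 20 S-phase genes, 4 fell (Cdt1, Rrm2, Mcm6 and Pcna), with Mcm6 at -0.14 and -0.34 in the libraries alone. Of 20 genes of G2 and mitosis, 1 fell (Aurkb), where 2.32% of all genes tested were lower. Without the marked cells, 1 of the 20 S-phase genes fell (Rrm2) and 1 of the 20 G2 and mitosis genes (Ube2c).

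Neural tube genes were lower in T-only cells. Of 22 tested, 14 fell and none rose, with a median log2 fold change of -1.10. The 31 genes of the list summed to 1941 and 1838 CPM in Sox2-only, 1417 and 1403 CPM in double-positive and 1108 and 1207 CPM in T-only cells. Sox3, a close relative of Sox2, stood at 89.1 and 163 CPM in Sox2-only and 39.1 and 74.7 CPM in T-only cells (log2 fold change -1.18 ± 0.08, edgeR adjusted p = 2.35e-06). The zinc finger genes Zic2 and Zic5 fell by 1.32 ± 0.11 and 1.38 ± 0.12 on the log2 scale (edgeR adjusted p = 1.93e-05 and 1.41e-05). Rfx4, a regulator of neural progenitors, stood at 12.6 and 10.4 CPM against 2.22 and 1.19 CPM (-2.46 ± 0.27, edgeR adjusted p = 0.000137).

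Crabp2, which carries retinoic acid in the cell, also fell (log2 fold change -1.02 ± 0.17, edgeR adjusted p = 0.00254), with -1.53 in replicate 1 alone and -0.37 in replicate 2 alone. Neurog2, a proneural gene, fell from 7.46 and 11.1 CPM to 0.87 and 0.95 CPM. Ncam1, a neural adhesion molecule, fell by 0.78 on the log2 scale. In the fit without marked cells, 13 of the 22 neural genes fell and none rose. The neural genes named here were lower in T-only cells in each library taken alone.

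Genes of epithelia were raised in T-only cells, and few of them were called once the marked cells were left out. Of 16 tested, 8 rose and none fell in T-only cells, with a median of 0.73. With those cells left out 2 rose (Cldn6 and Lamc1) and 1 fell (Cldn4), with a median of 0.21. Epcam, an epithelial adhesion molecule, stood at 80.5 and 27.1 CPM in Sox2-only and 233 and 126 CPM in T-only cells, and at 55.9 and 11.4 against 60.8 and 32.5 CPM without the marked cells (log2 fold change 1.66, then 0.35 with edgeR adjusted p = 0.458). Crb3, a protein of apical polarity, went from 2.16 to 0.85 (edgeR adjusted p = 0.438) and Apela, a ligand of the apelin receptor, from 1.996 to 0.36 (edgeR adjusted p = 0.526). Krt19, a keratin, went from 2.14 to 0.88 (edgeR adjusted p = 0.0348).

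Of the 12 endoderm markers, 5 rose in T-only cells, Sox17 most (log2 fold change 2.54 ± 0.37, edgeR adjusted p = 0.00101, with 2.86 in replicate 1 alone and 1.68 in replicate 2 alone). Cdh1, the E-cadherin gene, did not pass (0.79, edgeR adjusted p = 0.12), nor did Cdh2, N-cadherin (-0.04, edgeR adjusted p = 0.816), nor Vim, vimentin (-0.01, edgeR adjusted p = 0.978). Fn1, fibronectin, rose by 0.90 (1.21 and 0.52 in the libraries alone), and by 0.45 without the marked cells (edgeR adjusted p = 0.0128). In contrast, Cyp26a1 (2.43), Fgf8 (1.87), Rspo3 (1.94), Wnt3a (1.77) and Hes7 (1.34) were as large without the marked cells as with them.

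**Figure D2:**
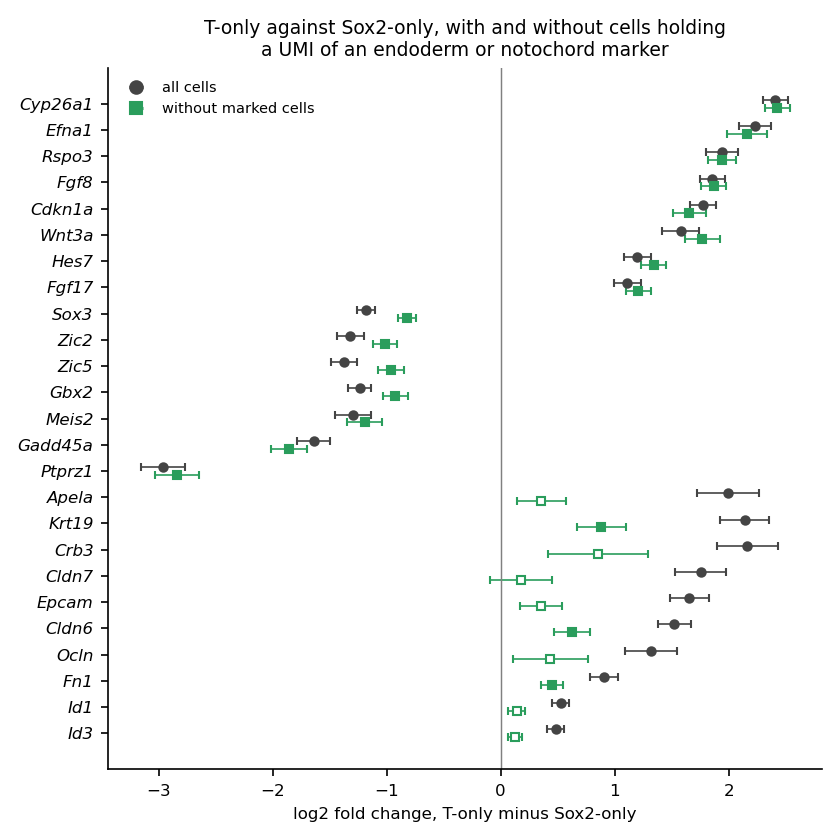
Log2 fold changes between the classes with all cells and without cells that hold a UMI of Sox17, Foxa2, Foxa1, Noto or Shh. Cyp26a1 (2.41 and 2.43) and Fgf8 (1.86 and 1.87) keep their values in T-only against Sox2-only cells, while Epcam goes from 1.66 to 0.35.

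Hox genes of the trunk and tail were mixed. Of 12 genes of groups 6 to 9, 4 rose in T-only cells (Hoxd9, Hoxd8, Hoxb6 and Hoxa9) and Hoxb9 fell (log2 fold change -0.97). Hoxb6 and Hoxa9 changed by 1.01 and 1.08 in replicate 1 alone and by 0.26 and 0.18 in replicate 2 alone. Of 3 tested genes of groups 10 to 13, Hoxc10 (1.77) and Hoxa10 (1.71) rose. Both rested mainly on replicate 2, where Hoxc10 stood at 24.7 CPM in Sox2-only and 105 CPM in T-only cells, while it stood at 2.98 and 3.70 CPM in replicate 1. Hoxc10 changed by 0.25 in replicate 1 alone and by 2.06 in replicate 2 alone, and Hoxa10 by 1.06 and 1.98.

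Double-positive cells held more Cyp26a1, Fgf8, Rspo3 and Wnt3a than Sox2-only cells and less of a few neural genes. The edgeR test called 54 genes higher and 38 lower, 0.812% of the genes tested (0.477% higher and 0.335% lower), where DESeq2 called 20 and 5. Fgf8 stood at 383 and 308 CPM in double-positive cells, a log2 fold change of 1.72 ± 0.12 (edgeR adjusted p = 5.22e-06), and Cyp26a1 rose by 1.79 ± 0.13 (edgeR adjusted p = 5.22e-06). Both comparisons share the Sox2-only cells, so they are not independent of each other. The call made with thinned cells gave 29 higher and 13 lower.

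Rspo3, at 159 and 160 CPM, rose by 1.65 ± 0.16 (edgeR adjusted p = 0.000158), and Efna1 by 1.63 ± 0.17 (edgeR adjusted p = 0.000348). Wnt3a, at 65.4 and 25.6 CPM, rose by 1.52 ± 0.19 (edgeR adjusted p = 0.0012), with 1.70 and 0.99 in the libraries taken alone. Cdkn1a, at 61.9 and 74.0 CPM, rose by 1.42 ± 0.13 (edgeR adjusted p = 0.000131). Limch1, an actin-binding protein, rose by 1.23 ± 0.15 and Hes7 by 1.21 ± 0.13 (edgeR adjusted p = 0.00112 and 0.00062). With Fgf8 and Cyp26a1, these genes had the largest rises by the naming rule, and each was higher in both libraries.

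**Figure D3:**
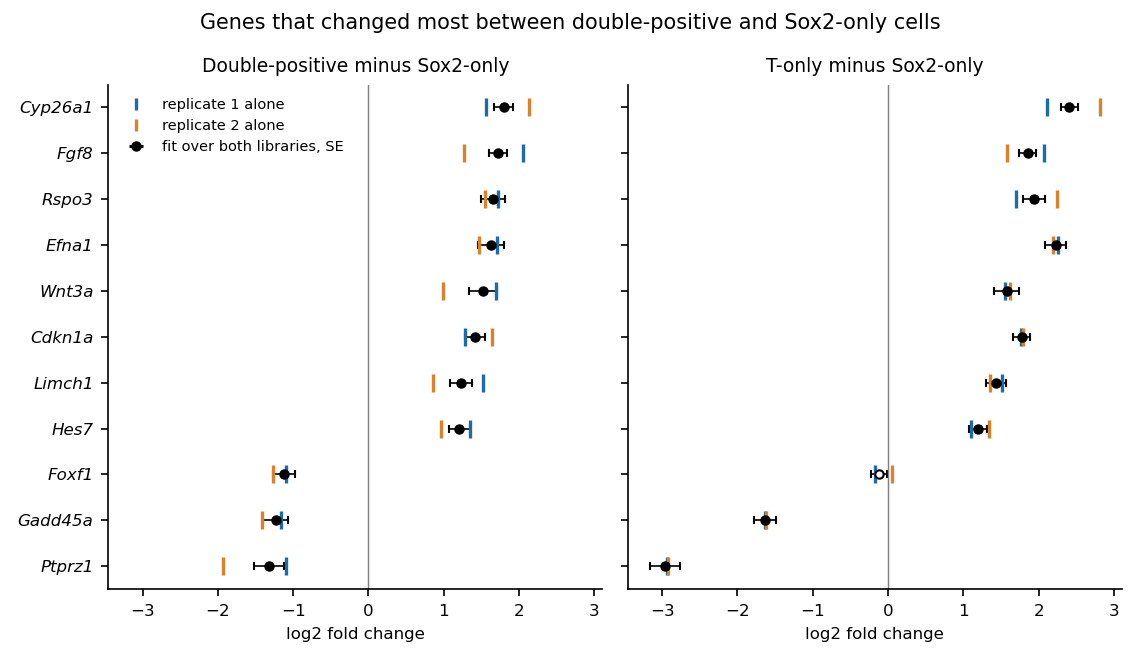
Log2 fold changes against Sox2-only cells of the 8 genes with the largest rises and the 3 with the largest falls in double-positive cells (left), and of the same genes in T-only cells (right). Black points are the fit over both libraries with its SE, ticks are each library alone, and open points did not pass an adjusted p of 0.05. Both panels share the Sox2-only cells. Foxf1 is lower in double-positive cells and is an open point in T-only cells.

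Of the 21 caudal epiblast genes, 10 rose in double-positive cells and 1, Gbx2, fell, with a median of 0.29 against 0.00 over all genes. They included Fgf17 (0.98 ± 0.13), Evx1 (0.67 ± 0.11), Cdx4 (0.45 ± 0.06) and Cdx2, which stood at 434 and 405 CPM in Sox2-only and 547 and 497 CPM in double-positive cells (0.31 ± 0.06, edgeR adjusted p = 0.0206). The libraries alone gave 1.40 and 0.64 for Fgf17 and 0.59 and 0.28 for Cdx4. Cdx2 did not pass in T-only cells (log2 fold change 0.17, edgeR adjusted p = 0.0768). In the Notch list, Hes7, Dll3 (1.09 and 0.50 in the libraries alone) and Nrarp rose, 3 of 15, and none fell. In the presomitic mesoderm list, Rspo3, Hes7 and Dll3 rose, 3 of 13.

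Of the 22 neural genes, 5 fell in double-positive cells (Rfx4, Ptprz1, Fgfbp3, at -0.75 and -1.36 in the libraries alone, Zic2 and Sox3) and none rose, with a median of -0.61. Sox3 fell by 0.47 ± 0.09 on the log2 scale (edgeR adjusted p = 0.0255) from 89.1 and 163 CPM to 69.1 and 110 CPM. Zic2 fell by 0.62 ± 0.13 (edgeR adjusted p = 0.0393), and Ptprz1 by 1.32 ± 0.20 (edgeR adjusted p = 0.00592). Zic5 (-0.47, edgeR adjusted p = 0.143) and Ncam1 (-0.07, edgeR adjusted p = 0.845) did not pass.

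Among the genes that fell most, besides Ptprz1 and Gadd45a (-1.23), were Foxf1, a transcription factor of lateral plate mesoderm (-1.12), Dlk1, a membrane protein related to Notch ligands (-1.002), Metrn, a secreted neurotrophic factor (-0.94), and the homeobox genes Meis2 (-0.89) and Gbx2 (-0.81). The libraries taken alone gave -1.11 and -0.48 for Dlk1, -0.73 and -1.44 for Metrn and -0.48 and -1.43 for Meis2. Hand1, also of lateral plate, and Pitx1, a homeobox gene of the hindlimb field, fell by 1.31 and 2.004. The 11 lateral plate markers summed to 222 and 110 CPM in Sox2-only, 147 and 59.7 CPM in double-positive and 250 and 123 CPM in T-only cells, and 2 of 10 tested fell. None of the 16 epithelial genes passed in double-positive against Sox2-only cells. The haemoglobin genes Hba-x, Hbb-y and Hbb-bh1 were called higher, but 2 double-positive cells of replicate 2 held almost all of these UMIs (up to 5669 in a cell), and Hba-x was at 0 in replicate 1. Without cells of 10 or more haemoglobin UMIs, 57 genes were higher and 43 lower.

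Against T-only cells, 6 of 22 neural genes were higher in double-positive cells, and 6 of 16 epithelial genes and 6 of 12 endoderm markers were lower. The edgeR test called 38 genes higher and 120 lower, 1.39% of the genes tested (0.335% higher and 1.06% lower), and DESeq2 called 5 and 16. Without the marked cells, 10 genes were higher and 25 lower. With cells thinned before the split, edgeR called 0 higher and 4 lower (the endoderm marker Spink1, Car4, Dlk1 and Id3), with 609 genes at an unadjusted p under 0.05. The comparison shares its cells with both others.

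Of the 22 neural genes, 6 rose in double-positive cells (Ptprz1, Zic5, Fgfbp3, Ncam1, Sox3 and Zic2) and none fell, with a median of 0.31. Ncam1 stood at 180 and 255 CPM in double-positive and 104 and 168 CPM in T-only cells (log2 fold change 0.71 ± 0.07, edgeR adjusted p = 0.000312). Sox3 rose by 0.71 ± 0.09 (edgeR adjusted p = 0.0015) and Zic5 by 0.91 ± 0.13 (edgeR adjusted p = 0.00262). Other genes with large rises were Tenm4, a teneurin of neuronal contacts (0.86), Nin, the centrosomal protein ninein (0.74), Heg1, a transmembrane receptor (0.65), and Nrxn2, a neurexin (0.65). Ptprz1 was at 1.84 and 0.98 in the libraries taken alone, and Fgfbp3 at 0.89 and 0.13. Without the marked cells, 3 neural genes rose, with a median of 0.24.

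Of the 16 epithelial genes, 6 fell in double-positive cells with a median of -0.79, and none passed without the marked cells. Of the 12 endoderm markers 6 fell, of the 20 BMP and TGF-beta genes 6 fell (3 of 19 without the marked cells) and of the 10 lateral plate markers 6 fell (3 of 9 without them). Car4, a membrane carbonic anhydrase, fell by 1.80 and was at -0.47 without the marked cells (edgeR adjusted p = 0.384). Krt19 (-1.36), Crb3 (-1.31) and Cpn1, a carboxypeptidase subunit (-1.26), stood at 0.035, 0.068 and 0.017 without them. With all cells, replicate 1 carried most of the difference in these genes: alone it gave -1.75, -1.66 and -1.79, and replicate 2 alone -0.36, -0.71 and -0.33. Car4 was at -1.92 and -1.19 in the libraries taken alone. Sct, the secretin gene, was at -1.41, and at -1.34 without them (edgeR adjusted p = 0.0211). Sox17 fell by 1.70, with -2.60 in replicate 1 alone and -0.08 in replicate 2 alone.

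Among the caudal ligands and targets, few differed between these classes. Cyp26a1 was lower in double-positive than in T-only cells by 0.61 ± 0.09 (edgeR adjusted p = 0.00357), and Efna1 by 0.60 ± 0.11 (edgeR adjusted p = 0.0179). The Wnt targets Nkd1 and Sp5 fell by 0.52 and 0.37, with Sp5 at -0.49 in replicate 1 alone and -0.13 in replicate 2 alone. Fgf8 (-0.14), Rspo3 (-0.29), Wnt3a (-0.06), Hes7 (0.01) and Fgf17 (-0.13) did not pass, with edgeR adjusted p-values of 0.668, 0.359, 0.937, 0.998 and 0.734. Cdkn1a (-0.36, edgeR adjusted p = 0.103), Cdx2 (0.13, edgeR adjusted p = 0.321) and Cdx4 (0.06, edgeR adjusted p = 0.801) did not pass either. A p above the threshold does not show that the levels were equal.

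**Figure D4:**
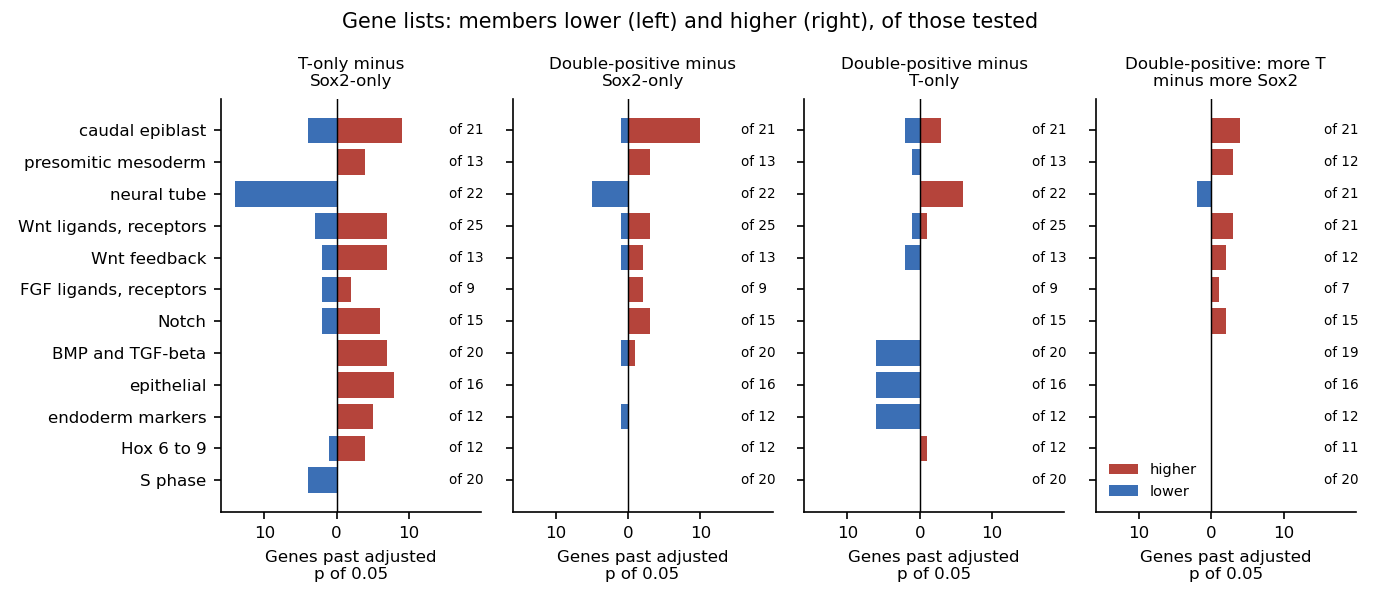
Number of genes in each list that passed an adjusted p of 0.05, lower to the left and higher to the right, with the number tested at the right of each panel. In T-only against Sox2-only cells, 14 of 22 neural tube genes are lower and 9 of 21 caudal epiblast genes higher. All panels share cells, and the epithelial and endoderm counts include the marked cells.

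Within the double-positive class, cells with more T than Sox2 held more Cyp26a1, Fgf8, Rspo3 and Wnt3a and less Ncam1 and Nin than cells with more Sox2. T-biased cells (83 and 45) were set against Sox2-biased cells (24 and 22) in a fit that also held the equal, Sox2-only and T-only cells. The edgeR test called 22 genes higher and 5 lower in T-biased cells, 0.267% of the 10130 genes tested (0.217% higher and 0.0494% lower), and DESeq2 called 15 and 5. All 27 genes had the same sign in both libraries. Neither gene of the pair is counted, since their UMIs defined the cells.

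Cyp26a1 stood at 62.1 and 85.8 CPM in Sox2-biased cells, 81.9 and 163 CPM in equal cells and 224 and 336 CPM in T-biased cells, with 47.5 and 48.6 CPM in Sox2-only and 212 and 346 CPM in T-only cells at the ends. T-biased cells were thus near the T-only level in both libraries, and their log2 fold change over Sox2-biased cells was 1.89 ± 0.19 (edgeR adjusted p = 5.09e-07). Fgf8 stood at 263 and 174, 297 and 280, and 499 and 412 CPM along the 3 double-positive groups (1.05 ± 0.14, edgeR adjusted p = 0.000216). Rspo3 stood at 90.5 and 108, 91.6 and 120, and 240 and 228 CPM (1.29 ± 0.19, edgeR adjusted p = 0.0006). In each of these genes the T-biased cells were above both other double-positive groups in each library.

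**Figure D5:**
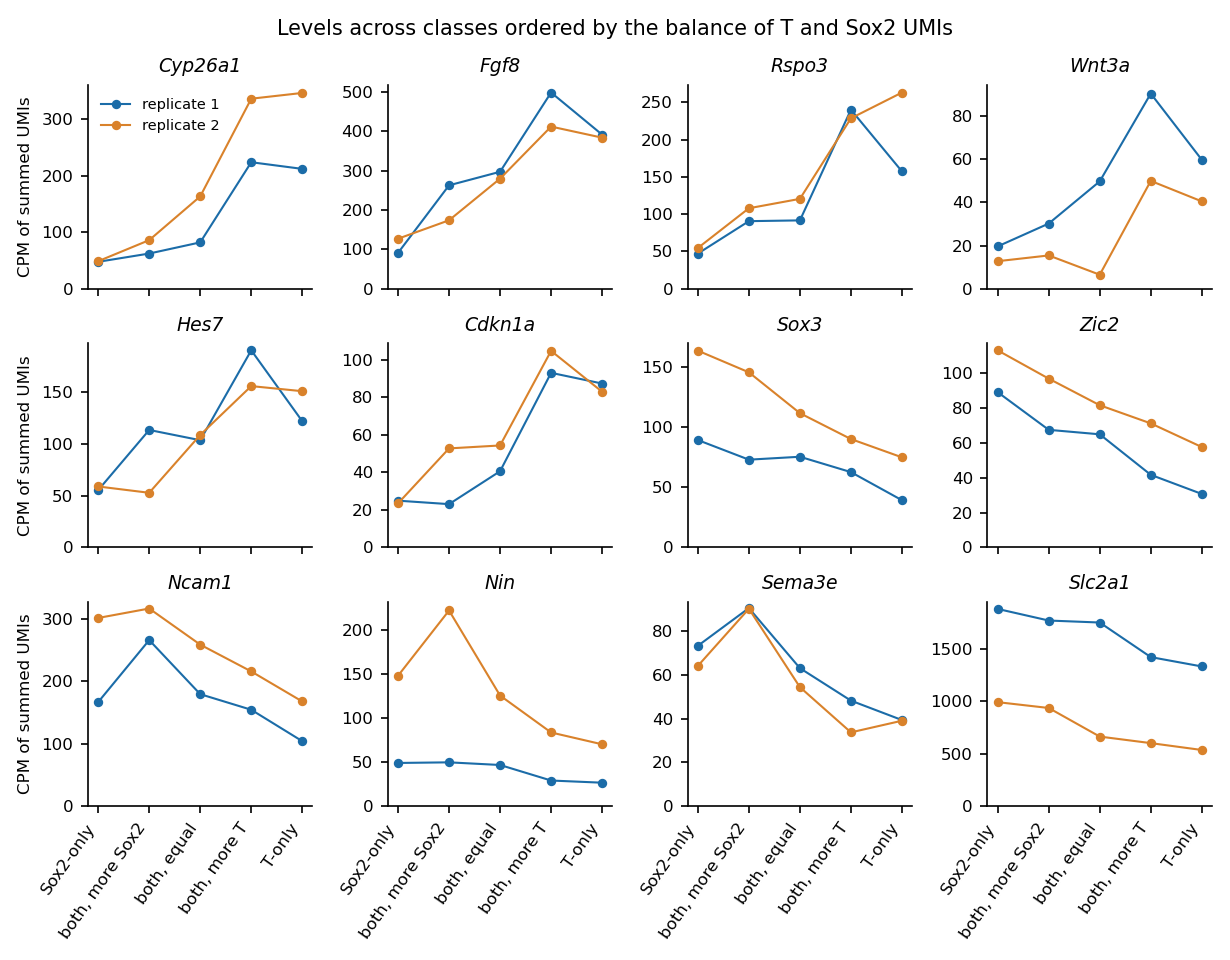
Level in CPM (y axis) along the order Sox2-only, double-positive with more Sox2, with equal UMIs, with more T, and T-only (x axis), 1 line per library. Cyp26a1 runs from 47.5 and 48.6 CPM to 212 and 346 CPM, and Sox3 from 89.1 and 163 CPM down to 39.1 and 74.7 CPM.

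Further genes rose in T-biased cells. Wnt3a, at 30.2 and 15.4 CPM in Sox2-biased and 90.4 and 49.9 CPM in T-biased cells, changed by 1.59 ± 0.34 (edgeR adjusted p = 0.0257), and Wnt6, a further Wnt ligand, by 1.51. Hes7 changed by 1.04 (edgeR adjusted p = 0.0154), Nrarp by 1.36, Nkd1 by 1.03 and Sp5 by 0.68. Cdkn1a stood at 23.1 and 52.8 CPM in Sox2-biased and 93.2 and 105 CPM in T-biased cells (1.39 ± 0.25, edgeR adjusted p = 0.00511). Lmo2 had the largest value (2.73 ± 0.44, edgeR adjusted p = 0.00124), from 3 and 4 UMIs in Sox2-biased cells to 80 and 48 UMIs in T-biased cells. Efna1 (1.598), Crip2, a LIM-domain protein (1.77), and Ets2, an ETS factor (1.39), also rose. In replicate 1 alone Efna1, Crip2 and Wnt6 changed by 1.18, 1.25 and 1.35, and in replicate 2 alone by 2.56, 2.94 and 2.76.

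The 5 genes that fell in T-biased cells were Fgfbp3, a carrier of secreted FGF (-1.64), Nin (-1.24 ± 0.19), Sema3e, a secreted semaphorin (-1.08 ± 0.20), Ncam1 (-0.66 ± 0.13) and Slc2a1, a glucose transporter (-0.44 ± 0.08). Their edgeR adjusted p-values were 0.000231, 0.000953, 0.01, 0.0119 and 0.00972. Fgfbp3 rested on replicate 1 (-1.69, from 83 and 83 UMIs), since replicate 2 held 3 and 3 UMIs (-0.74). Nin was at -0.77 in replicate 1 alone and -1.42 in replicate 2 alone. Nin stood at 49.7 and 222 CPM in Sox2-biased cells and 29.0 and 83.7 CPM in T-biased cells, and Ncam1 at 266 and 317 CPM against 155 and 216 CPM. For Ncam1 the Sox2-biased level lay above the Sox2-only level of 167 and 302 CPM in both libraries, a difference that was not tested.

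Of 21 caudal epiblast genes 4 rose and none fell, of 12 presomitic mesoderm genes 3 rose and none fell, and of 21 neural genes 2 fell (Fgfbp3 and Ncam1) and none rose, with a neural median of -0.59. Sox3 was at 72.8 and 145 CPM in Sox2-biased, 75.2 and 111 CPM in equal and 62.5 and 89.9 CPM in T-biased cells, and did not pass (log2 fold change -0.46, edgeR adjusted p = 0.495). Zic2 (-0.59, edgeR adjusted p = 0.479), Fgf17 (0.66, edgeR adjusted p = 0.261) and Cdx2 (0.11, edgeR adjusted p = 0.778) did not pass either. None of 16 epithelial genes passed. Epcam, at 40.8 and 24.2 CPM in Sox2-biased and 112 and 105 CPM in T-biased cells, missed the threshold (1.62, edgeR adjusted p = 0.0597), and the part of marked cells in these groups was not tested.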

How the data were processed

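The 2 libraries of pooled caudal tissue were analysed. The deposited values are counts, UMIs for each gene in each barcode, produced by the authors with Cell Ranger 6.1.1 and the mm10 genome, per the submitters' processing notes. Their annotation was not given in the sources used here. Among 32286 features, 1 was a custom eGFP entry left out of all tests.

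The UMIs of all cells of a class were added up within each library. These sums were tested by quasi-likelihood in edgeR 4.0.16 (R 4.3.3), after TMM normalisation and filterByExpr, with a prior count of 2 and library as a block. The classes come from the same 2 libraries, so the library pairs them. The 3 classes were fitted together (6 sums) and the graded classes in a fit of 5 (10 sums). Benjamini-Hochberg adjustment covered every gene of a fit, 0.05 was the threshold and tests were two-sided. Each SE is the fold change divided by the root of its F value. The 10 genes of the selection were left out of counts. The code was checked on simulated counts.

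The genes named by size were, per comparison, the 8 with the largest change in each direction at an adjusted p under 0.05, the same sign in each library and at least 20 CPM in the higher class of each library. Members of 36 gene lists (465 genes) that passed, and a fixed set of caudal, neural and adhesion genes, were named too, and 1 gene that the rule names is not reported here. The cells, lists and named genes were chosen with earlier results of these data known.

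Alternatives were DESeq2 1.42.0 and its size factors, no filter on low counts, no block, double-negative cells as a 4th class, thinning to 8000 UMIs, at least 2 UMIs for a class, at least 12000 UMIs per cell, at least 5 progenitor UMIs and leaving out doublet calls (Scanpy 1.11.5). Leaving out shared barcodes, cells with markers of other cell types and cells with haemoglobin was added after the data were seen. Shares carry exact Clopper-Pearson 95% intervals.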

Additional observations from a re-analysis of the deposited data

Results flagged for a closer look

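The count tables hold a custom eGFP entry that no comparison used. It was counted in 1295 UMIs over 943 barcodes of replicate 1 and in 548 UMIs over 446 barcodes of replicate 2, of which 166 and 73 UMIs lay in selected caudal epiblast cells. The labels give a wild-type genotype for both libraries, and there were no control libraries to set these counts against. The source of these reads was not tested.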

How the results depend on the processing

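The fit of 3 classes leaves 2 residual degrees of freedom and the graded fit 4, and every class rests on 1 or a few UMIs of its genes, so classes and counts of calls move with depth. Without the replicate block, edgeR called 0 genes higher and 0 lower in all 4 comparisons, with 505 (T-only against Sox2-only), 222 (double-positive against Sox2-only), 203 (double-positive against T-only) and 381 (T-biased against Sox2-biased) genes at an unadjusted p under 0.05. DESeq2 with the block called 81 higher and 41 lower, 20 and 5, 5 and 16, and 15 and 5, in the same order.

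For T-only against Sox2-only, no filter gave 733 higher, thinning 215 and 115, leaving out the cells with endoderm or notochord markers 176 and 118, and leaving out cells with any other type's marker 171 and 113. DESeq2 size factors gave 449 and 316, 58.7% higher against 63.4%. For double-positive against Sox2-only, no filter gave 163 and 161, thinning 29 and 13, a 4th class 22 lower, at least 2 UMIs 24 lower and leaving out any other type's marker 61 lower. For double-positive against T-only, no filter gave 92 and 359, thinning 0 and 4, at least 2 UMIs 78 lower, leaving out endoderm or notochord markers 10 and 25, and leaving out any other type's marker 4 and 12. For T-biased against Sox2-biased cells, no filter gave 52 and 15.

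Shares of Sox2-only cells were 6.54% and 10.7% after thinning, 5.10% and 6.23% with at least 2 UMIs, 12.7% and 17.5% with at least 5 progenitor UMIs and 14.9% and 22.3% without other types' markers. Those of double-positive cells were 2.80% and 3.65%, 1.92% and 1.52%, 11.9% and 13.2%, and 15.4% and 14.8%. Those of T-only cells were 27.1% (replicate 1), 31.5% and 21.7%, 40.1% and 29.3%, and 42.2% and 29.7%, with 33.0% in replicate 1 without endoderm or notochord markers.

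Of 1807 values of single genes over 133 results, 1539 stayed on their side of the threshold or, with no test, within the spread, 194 lost the call, 27 gained it, 42 moved beyond the spread with no test and 5 were called values that turned sign. For values with no test, those of a single library, the spread was the standard deviation of the library values. That spread widens as the libraries differ, so staying within it was largely fixed in advance. It does not show that the libraries gave the same value. A further 54 values turned sign where the result was not called, and are counted in the other groups. These 5 called values, in double-positive against T-only cells, were Nin (-0.030 after thinning), Krt19 (0.035 without endoderm or notochord markers and 0.29 without other types' markers), Crb3 (0.068) and Cpn1 (0.017). The causes were not tested. A single library left no residual degrees of freedom, so leaving out a library gave fold changes with no test.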

Other observations

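Some genes stood apart between the libraries in all 3 classes. Pou5f1, an epiblast gene, stood at 73.1, 85.2 and 52.2 CPM in Sox2-only, double-positive and T-only cells of replicate 1, and at 0.80, 0.99 and 0.71 CPM in those of replicate 2. Fgfbp3 stood at 131, 78.5 and 42.4 CPM in replicate 1 and at 11.9, 4.44 and 4.05 CPM in replicate 2. The 12 genes of Hox groups 10 to 13 summed to 8.95, 8.42 and 14.3 CPM in replicate 1 and to 40.6, 92.7 and 174 CPM in replicate 2. Xist stood at 165, 133 and 131 CPM in replicate 1 and at 0, 0.49 and 0.48 CPM in replicate 2. The labels give the same age and strain for both libraries, and within-library differences between classes are those the library block compares.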
